A study of Homo sapiens with 24 samples.

Results

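DN-POLG cells on day 6 of doxycycline were compared with DN-POLG cells on day 3, to find which transcripts moved between these days while the transgene was on in both. The comparison rests on 6 of the 24 arrays of the series, 3 from day 6 and 3 from day 3, taken by their titles. DN-POLG is a dominant-negative form of POLG, the catalytic subunit of the mitochondrial DNA polymerase, carried in HEK293 cells (human embryonic kidney, an established line) as a tetracycline-inducible transgene. All cells, at every day, grew in high-glucose medium with uridine and pyruvate, which lets cells without a working respiratory chain grow. Day 6 and day 3 cells had both received doxycycline, so the antibiotic itself did not differ between them except in its duration. A culture round started from a single starter culture, and more flasks were pooled for the later days than for the earlier ones. The other HEK293 arrays, used here for the spread between replicates, were uninduced DN-POLG cells at day 0, DN-POLG cells at day 9, and DN-POLG cells that also carried AOX and NDI1 at days 0 and 9 (3 arrays each). AOX and NDI1 are an alternative oxidase and a single-subunit NADH dehydrogenase that pass electrons around blocked respiratory complexes.

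Mitochondrial DNA (mtDNA) encodes core subunits of the respiratory chain and of ATP synthase together with the ribosomal and transfer RNAs needed to make them, and every other mitochondrial protein comes from nuclear genes. When mtDNA is no longer copied, its transcripts are lost gradually with cell division and turnover, and respiratory complexes are lost after them. Cells are known to answer such a loss through the integrated stress response, in which kinases phosphorylate eIF2alpha and the transcription factor ATF4 induces genes of amino acid supply and tRNA charging.

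Day 6 replicate 1 stood apart from the other arrays before any comparison. The ratio of the 3' to the 5' control probe set of ACTB, a measure of RNA integrity and amplification, was 8.92, 1.05 and 1.27 in day 6 replicates 1, 2 and 3, against 1.62, 1.81 and 1.30 at day 3. For GAPDH it was 1.97, 1.01 and 0.933 at day 6, against 0.988, 1.05 and 0.964 at day 3. Neither difference of mean log2 ratios passed an exact two-sided permutation test (p = 1 for ACTB and p = 0.8 for GAPDH), which with 3 against 3 cannot go below 0.1. Across the 23132 probe sets tested, the log2 signals of day 6 replicate 1 correlated at 0.885 and 0.89 with the other day 6 arrays, which correlated at 0.963 with each other. The results below are therefore given with and without that array. The median standard deviation of log2 signal was 0.444 at day 6 (0.22 without replicate 1) and 0.281 at day 3, against 0.148 and 0.215 in the AOX/NDI1 groups of the same model. Markers of the HEK293 lineage were present, with 9 of 11 measured markers above the filter and summed signals of 10280 to 11430 at day 6, against 13550 to 16830 at day 3. Of 8 blood and endothelial markers measured, 2 were above the filter, and their summed signal was 263 to 524 at day 6, against 363 to 471 at day 3. Of 16 osteosarcoma and mesenchymal markers measured, 10 were above the filter. The summed signal of the 16 was 24580 to 37020 at day 6, against 24080 to 41000 at day 3.

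More genes were lower than higher at day 6. The values are MAS5 signals, the brightness that Affymetrix software gives each probe set, and a gene was called when limma's adjusted p was under 0.05 on any of its probe sets in a model of all 18 HEK293 arrays. Of 12104 genes tested, 111 were higher only (0.917%), 406 were lower only (3.35%) and 10 had probe sets in both directions. Without day 6 replicate 1, 73 genes were higher (0.603%) and 281 lower (2.32%), of which 54 and 200 had also been called in that direction with all arrays. No gene was called in opposite directions in the 2 fits. The number of calls depended on the spread taken from the other groups. With the 12 DN-POLG arrays alone, 4 genes were higher and 2 lower (0.0496% in either direction), and 0 without day 6 replicate 1, where 2336 genes had an unadjusted p under 0.05. With the 6 arrays of days 6 and 3 alone, 0 were higher and 2 lower. With the replicate number as a block, 69 were higher and 191 lower, and with the block and without day 6 replicate 1 the counts were 6 and 11. Day 3 replicates 1 and 3 carried much of the result, since without them the calls were 42 higher and 56 lower, and 26 higher and 22 lower. The balance of directions also depended on scaling. It was 156 higher and 192 lower after quantile normalization, and 134 higher and 90 lower with each array set to 1 median, a step that moved the median log2 fold change of all probe sets to 0.07, against -0.09 as deposited.

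**Figure D1:**
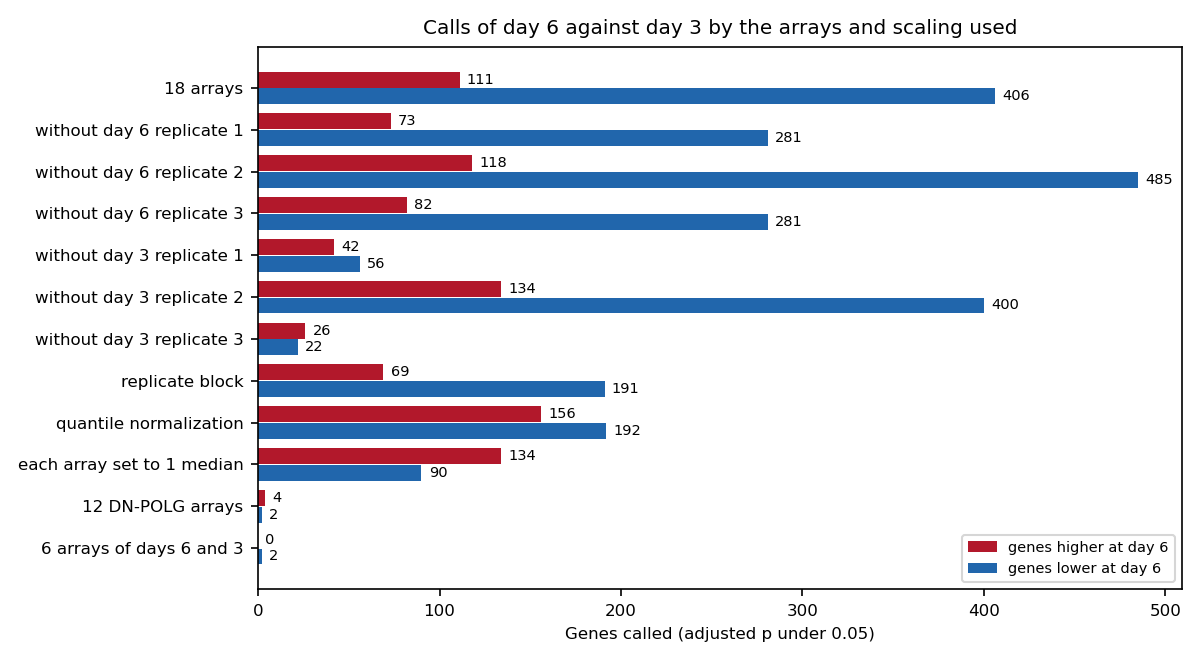
Number of genes called higher and lower at day 6 than at day 3 (x axis) for 12 sets of arrays, scalings and models (y axis). The 111 higher and 406 lower calls of the 18-array model fell to 4 and 2 with the 12 DN-POLG arrays alone.

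The transgene was on at both days. The probe set 217635_s_at of POLG gave signals of 3773, 3719 and 4570 at day 6, against 2900, 3755 and 2930 at day 3, and the day 6 and day 3 arrays overlapped (log2 fold change 0.34 ± 0.53 SE, adjusted p = 0.78 by limma). It had been 280 to 421 at day 0 and was 2834 to 4739 at day 9. A second probe set, 203366_at, gave 2283, 961 and 1288 at day 6, against 1342, 959 and 1087 at day 3, and 643 to 1294 at day 0, without the step seen for 217635_s_at.

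The 7 transcripts of mtDNA on the array had lower mean log2 signals at day 6 in the deposited values, and none of the 7 passed the test. With each array set to 1 median, COX1 and ND4 turned to 0.02 and 0.07 and the other 5 kept their sign. ATP6, a subunit of ATP synthase, had 10732, 2953 and 7698 signal units at day 6, against 10803, 11067 and 17667 at day 3 (log2 fold change -1.04 ± 0.38, adjusted p = 0.15). The lowest day 3 array was only slightly above day 6 replicate 1. COX2, a subunit of cytochrome c oxidase, had 23162, 23808 and 18079 at day 6, against 26196, 44615 and 28831 at day 3 (-0.59 ± 0.24, adjusted p = 0.20, and 0.028 after quantile normalization). ND2, of complex I, had 11480, 10487 and 8399 at day 6, against 11551, 14417 and 13524 at day 3 (-0.39 ± 0.23, adjusted p = 0.39). In these 3 genes the days did not overlap, against 13.6% of all genes whose brightest probe set had all day 6 arrays below all day 3 arrays. ND6, the complex I gene of the light strand, had 2195, 434 and 931 at day 6, against 1483, 1555 and 2395 at day 3, so that replicate 1 lay within the day 3 range. COX3 (log2 fold change -0.70), COX1 (-0.14) and ND4 (-0.08) overlapped as well. The median log2 fold change of the 7 was -0.59, and -0.64 without day 6 replicate 1, against -0.07 and -0.09 for the 12104 genes. These probe sets were bright, with COX1 between 35512 and 46134 units at day 6, against 36183 to 69210 at day 3, and fewer transcripts per cell cannot be told apart here from a smaller share of cells that hold mtDNA.

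**Figure D2:**
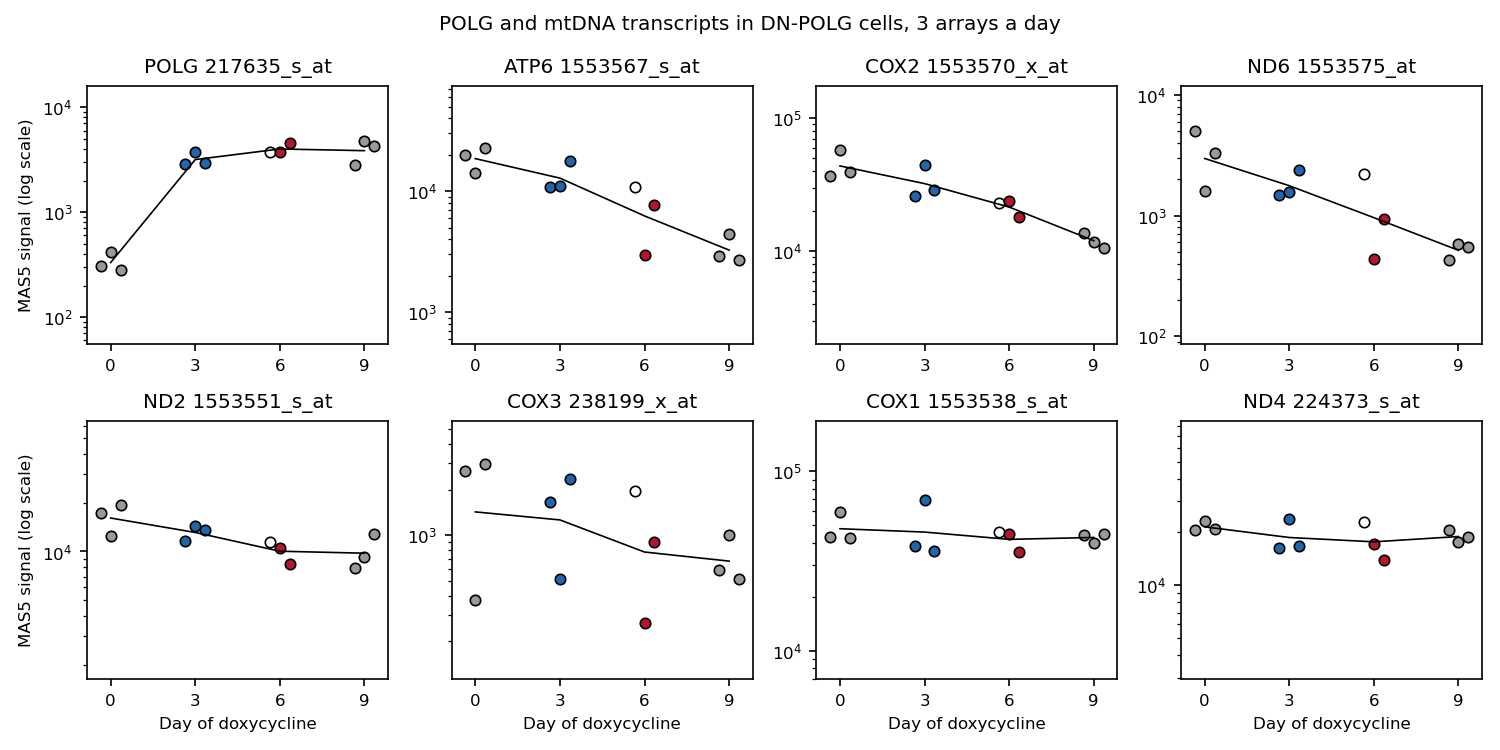
MAS5 signal (y axis, log scale) of POLG and of the 7 mtDNA genes in every DN-POLG array by day of doxycycline (x axis), with day 6 in red, day 3 in blue, day 6 replicate 1 as an open circle and lines through the means of log2 signal. POLG stepped up before day 3, and COX2 lay between 18079 and 23808 at day 6, against 26196 to 44615 at day 3.

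The largest falls that held with and without day 6 replicate 1, with no overlap between the days, were led by OLFML2A, an extracellular matrix protein of the olfactomedin-like family. Its probe set 213075_at had 18.2, 14.2 and 15.9 units at day 6, against 244, 242 and 178 at day 3 (log2 fold change -3.77 ± 0.47, adjusted p = 0.0020 by limma). It also passed with the 12 DN-POLG arrays alone (adjusted p = 0.049). LINC01535, a long non-coding RNA, had 8.39, 8.11 and 9.04 at day 6, against 82.6, 80.0 and 126 at day 3 (-3.47 ± 0.50). PAFAH1B1 (LIS1), a regulator of the motor dynein, was the brightest of the 12, with 392, 653 and 609 on 200816_s_at at day 6, against 2381, 1995 and 3541 at day 3 (-2.25 ± 0.29, adjusted p = 0.0028). In all of these the days were far apart. ZCCHC14, outside the 12 and named because it passed with the 12 DN-POLG arrays alone, had 326, 492 and 365 at day 6, against 1213, 1376 and 1246 at day 3 (-1.72 ± 0.20).

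In a second group the fall was larger with day 6 replicate 1 than without it. RPP30, a protein subunit of RNase P, had 1.85, 52.8 and 33.5 on 1556062_at at day 6, against 193, 107 and 212 at day 3, and its log2 fold change was -3.46 with all arrays and -1.96 without that replicate. ELP2, a subunit of the Elongator complex that modifies tRNAs, gave -3.12 and -1.75 on 243735_at. FRMD4A, a scaffold of epithelial polarity, gave -3.08 and -1.70 on 225163_at. All 3 still passed without it (adjusted p = 0.037, 0.014 and 0.032). For PLEKHG4B, ANKRD36B and DCBLD2 the fall was larger without replicate 1, at -3.39, -3.26 and -2.92. DIDO1 (-2.74 on 227335_at), the zinc finger gene ZXDC (-2.63) and the antisense RNA ZNF407-AS1 (-2.27) complete the 12. Whether the probes of ZNF407-AS1 also read its partner gene was not tested.

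The largest rises were led by STK17B (DRAK2), a kinase of the death-associated protein kinase family. Its probe set 243797_at had 227, 144 and 140 units at day 6, against 36.4, 5.24 and 23.0 at day 3 (log2 fold change 3.34 ± 0.51, adjusted p = 0.0060 by limma). BCL10, an adaptor of NF-kappaB signalling, had 916, 1139 and 1245 on 1557257_at at day 6, against 203, 321 and 164 at day 3 (2.31 ± 0.32, adjusted p = 0.0047). SLC22A5, the carnitine transporter OCTN2 of the plasma membrane, had 897, 619 and 710 on 239615_at at day 6, against 107, 243 and 122 at day 3 (2.32 ± 0.42, adjusted p = 0.012). EIF2AK4 (GCN2), the eIF2alpha kinase that senses uncharged tRNA, had 1502, 606 and 1072 on 237145_at at day 6, against 249, 188 and 177 at day 3 (2.29 ± 0.32, adjusted p = 0.0047). Every day 6 array lay above every day 3 array on these 4 probe sets, as the choice of genes required. Of the 12 rises, 5 had all day 3 arrays, and of the 12 falls, 6 had all day 6 arrays, below the level of the filter on signal (57.2), so the sizes of those fold changes are uncertain.

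INPP5F, a phosphoinositide phosphatase, rose on 230363_s_at (480, 310 and 313 at day 6, against 89.6, 47.8 and 106 at day 3) and 230362_at (374, 232 and 177, against 99.3, 83.4 and 85.8), with log2 fold changes of 2.23 and 1.48. Its brightest probe set, 203607_at, had 911, 764 and 1133 at day 6, against 1273, 739 and 1238 at day 3 (-0.19, adjusted p = 0.76). LATS2, a kinase of the Hippo pathway, had 452, 401 and 324 on 230348_at at day 6, against 109, 111 and 56.4 at day 3 (2.14 ± 0.42). The other rises among the 12 were PCGF3, a Polycomb group RING finger protein (2.56), BLZF1, a Golgi protein (2.48), ZCCHC2 (2.35), the splicing factor SRSF5 (2.13), CASK, a membrane-associated guanylate kinase (2.12) and ZFX, a zinc finger factor of the X chromosome (2.09). With the 12 DN-POLG arrays alone the higher genes were ENSA, a regulator of the phosphatase PP2A in mitosis, NDST1, an enzyme of heparan sulfate modification, ZC3HAV1, an antiviral zinc finger protein, and SETMAR, a histone methyltransferase fused to a transposase. ENSA had 1903, 1390 and 1256 on 228852_at at day 6, against 390, 520 and 305 at day 3 (1.92 ± 0.21), and SETMAR had 199, 176 and 224 on 1554060_s_at at day 6, against 50.5, 50.3 and 52.5 at day 3 (1.96 ± 0.25).

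**Figure D3:**
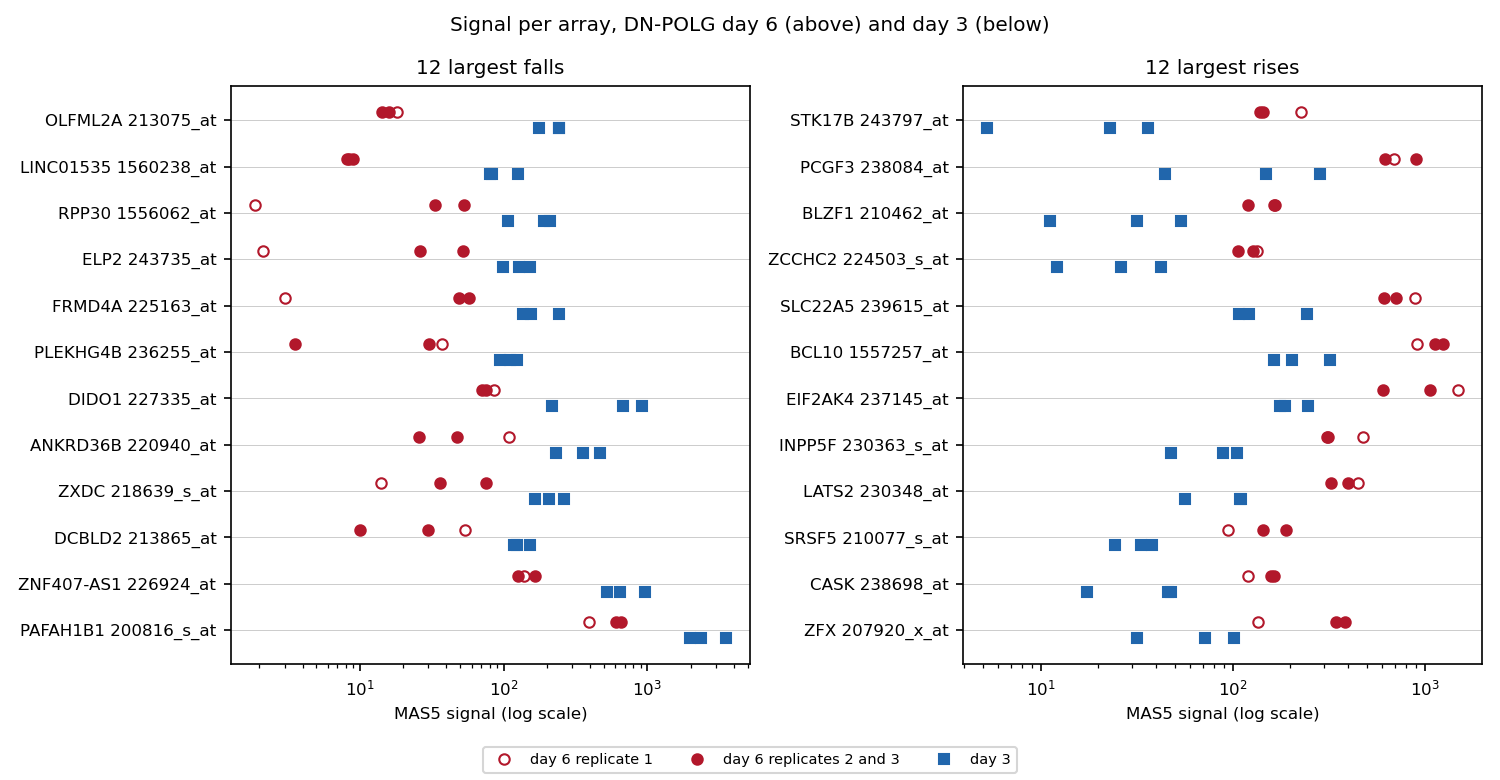
MAS5 signal per array (x axis, log scale) of the 12 largest falls and 12 largest rises (y axis, gene and probe set), with day 6 as circles above day 3 as squares and day 6 replicate 1 as open circles. RPP30, ELP2 and FRMD4A have day 6 replicate 1 far below the other day 6 arrays, at 1.85 to 3.03.

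The levels at days 0 and 9 are given as a description, since the genes were chosen on days 6 and 3. Over the 61 genes that were called higher in both fits with no overlap, the median signal of the called probe set was 214, 152, 440 and 531 at days 0, 3, 6 and 9. Over the 203 genes lower by the same rule it was 421, 502, 193 and 185. Both sets include genes with another probe set called the other way, which the 54 and 200 genes above leave out. The day 9 mean lay nearer to the day 6 than to the day 3 mean in 60 of the 61 and in 186 of the 203, and the day 0 mean in 9 and 7. BCL10 1557257_at, for example, was 211 to 500 at day 0 and 1627 to 2575 at day 9, and PAFAH1B1 200816_s_at was 1670 to 3058 at day 0 and 230 to 393 at day 9. OLFML2A was an exception in part, at 117 to 172 on day 0 and 20.0, 114 and 78.3 on day 9. SRSF5 210077_s_at was 52.2 to 143 at day 0, which overlapped its 94.8 to 189 at day 6.

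A rise was often seen on some probe sets of a gene and not on others. As a background, 5304 of all 12104 genes had a positive and 6800 a negative log2 fold change on their brightest probe set. Of the 61 genes, 57 had other tested probe sets, and 54 of these 142 (38%) also had a positive log2 fold change, with a median of -0.19 (-0.08 without day 6 replicate 1). The brightest probe set of the gene was the one called in 14 of the 61. Of the 203 genes, 166 had other tested probe sets, and 250 of these 353 (70.8%) also had a negative log2 fold change, with a median of -0.37 (-0.38 without that replicate). The brightest probe set was called in 104 of them. BCL10 shows the pattern, with 1557257_at and 1557258_a_at up by 2.31 and 2.22 and 205263_at at 1848, 2125 and 1779 at day 6, against 3093, 3214 and 2825 at day 3 (-0.67, adjusted p = 0.11). For EIF2AK4 the other probe set, 225164_s_at, had 1160, 521 and 935 at day 6, against 1697, 555 and 1481 at day 3. For LATS2 the brighter 227013_at and 223380_s_at had log2 fold changes of -0.25 and 0.03. For BLZF1 the brighter 203840_at, 1558560_s_at and 32088_at had -0.46, -0.60 and -0.05. For CASK the brighter 211208_s_at, 207620_s_at, 227156_at and 238699_s_at had 0.17, -0.48, -0.88 and -0.11. Without day 6 replicate 1 these CASK values were 0.14, 0.25, -0.38 and 0.74.

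In 10 genes probe sets were called in both directions, namely ANKRD44, DIDO1, JADE1, LINC01128, N4BP2L2, PCGF3, SLC22A5, SRSF5, UBE3C and ZC3HAV1. They were singled out after their values had been seen. Without day 6 replicate 1 the count was 6, with the replicate block it was 3 and with the 12 DN-POLG arrays 0. Without that replicate SRSF5 203380_x_at, JADE1 235024_at, LINC01128 1557055_s_at, N4BP2L2 214748_at and ZC3HAV1 225634_at were no longer called (adjusted p = 0.086, 0.115, 0.082, 0.0503 and 0.065 by limma). The 6 were therefore not all among these 10. In SLC22A5, 205074_at had 349, 237 and 318 units at day 6, against 553, 564 and 624 at day 3 (log2 fold change -0.96 ± 0.24, adjusted p = 0.046), while 239615_at rose by 2.32. In SRSF5, 203380_x_at had 1218, 1817 and 1995 at day 6, against 3672, 3621 and 4301 at day 3 (-1.23 ± 0.28), and the much dimmer 210077_s_at had 94.8, 189 and 144 at day 6, against 33.3, 37.9 and 24.4 at day 3. In UBE3C, a ubiquitin ligase, 201817_at had 754, 864 and 964 at day 6, against 2368, 1661 and 2362 at day 3 (-1.30 ± 0.23), and 1554794_a_at had 279, 341 and 498 at day 6, against 219, 210 and 148 at day 3 (0.93 ± 0.24). Day 6 and day 3 did not overlap on any of these probe sets. ZC3HAV1 rose by 1.67 on 220104_at and fell by 1.37 on 225634_at. For DIDO1, 218325_s_at rose by 0.89 and 213213_at fell by 1.26 and 227335_at fell by 2.74. Averaging the probe sets of a gene left PCGF3 at -0.05 and SRSF5 at -0.12. Genes called lower had a median span in GRCh38 of 69.8 kb and genes called higher of 44.7 kb, against 30.8 kb for all tested genes (66.2 and 47.5 kb for the calls without day 6 replicate 1).

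**Figure D4:**
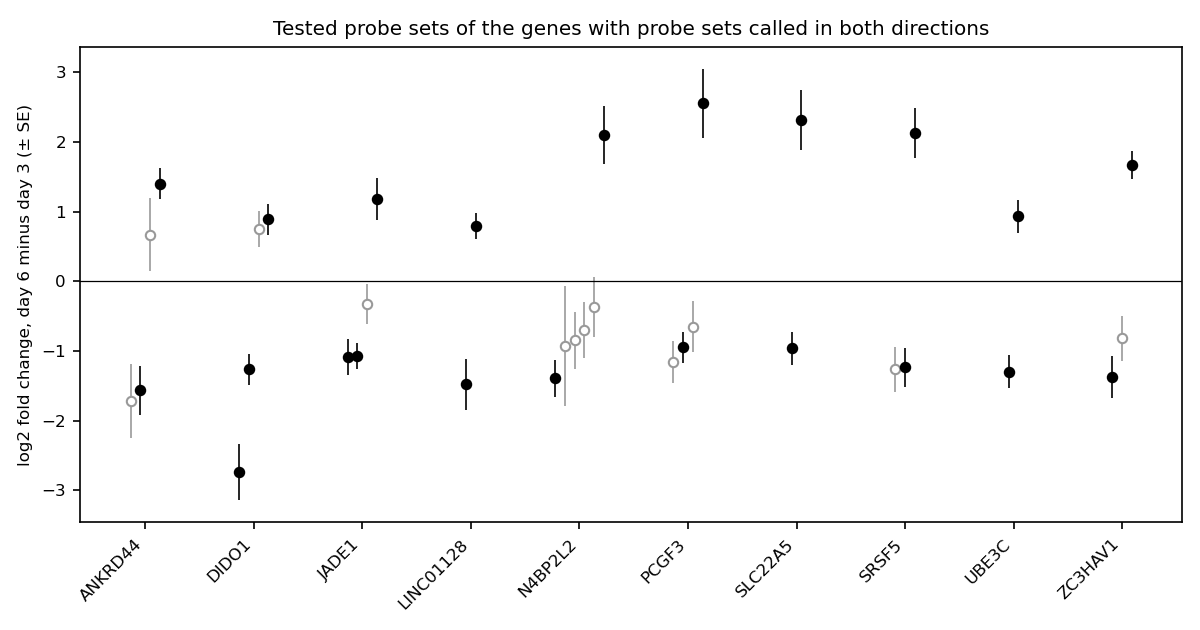
log2 fold change of day 6 minus day 3 (y axis, ± SE of the 18-array model) for every tested probe set of the 10 genes (x axis) with calls in both directions. Filled points passed an adjusted p of 0.05, and each gene has at least 1 filled point on either side of 0.

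Among 15 tested genes that write, read or erase DNA methylation, 2 were called lower and 0 higher, with and without day 6 replicate 1, against 3.35% lower and 0.917% higher over all genes (2.32% and 0.603% without that replicate). DNMT3B, a de novo DNA methyltransferase, had 475, 435 and 475 units at day 6, against 868, 1072 and 799 at day 3 (log2 fold change -0.97 ± 0.19, adjusted p = 0.015 by limma, and 0.028 without that replicate). The day 6 arrays were close to each other and all below day 3. TET1, a dioxygenase that starts the removal of methyl groups, had 83.8, 57.4 and 62.5 on 214862_x_at at day 6, against 251, 162 and 290 at day 3 (-1.76 ± 0.33), but its brighter probe set 228906_at had 2055, 1697 and 1604 at day 6, against 1450, 1536 and 1314 at day 3 (0.31 ± 0.18, adjusted p = 0.39). TDG, the glycosylase that removes oxidised methylcytosine, had 2980, 3323 and 4156 at day 6, against 6146, 4858 and 6451 at day 3 (-0.74, adjusted p = 0.061), and TET2 gave -1.29 (adjusted p = 0.074). DNMT1 (-0.51), DNMT3A (0.71) and UHRF1 (-0.19) did not pass. The list's median was -0.11 (-0.21 without day 6 replicate 1) and ran from -0.29 to 0.45 over the settings planned beforehand.

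Among 38 tested histone-modifying enzymes, 2 were called lower and 0 higher with all arrays, against 3.35% and 0.917% over all genes. These counts are too small to compare with those shares. KAT6A, an acetyltransferase, had 1177, 1267 and 1504 on 226547_at at day 6, against 2804, 2664 and 2974 at day 3 (log2 fold change -1.10 ± 0.20, adjusted p = 0.011 by limma), and was 450 to 530 at day 9. Its dimmer 202423_at and 216361_s_at gave -0.27 and -0.04 and did not pass. KMT2C, a lysine methyltransferase, fell by 1.03 on 222414_at and did not pass without day 6 replicate 1 (adjusted p = 0.12). Without it KAT6A, KMT2A, NSD1 and DOT1L were the 4 called lower, the last 3 on 1 of 2 or more probe sets. Over all genes 2.32% were called lower in that fit. The median was 0.04 with all arrays and -0.06 without.

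Of 36 tested ATF4 targets, EIF4EBP1 alone was called with all arrays, against 0.917% of all genes called higher. This repressor of cap-dependent translation had 19641, 9904 and 9788 units at day 6, against 6333, 5768 and 6350 at day 3 (log2 fold change 1.01 ± 0.26, adjusted p = 0.049 by limma), and 0.68 with an adjusted p of 0.11 without day 6 replicate 1. Without that replicate ATF3, a stress-induced transcription factor, was called higher on 1554420_at (101, 1395 and 559 at day 6, against 175, 231 and 175 at day 3), and SLC1A4, a neutral amino acid transporter, lower on 212811_x_at (271, 146 and 124, against 266, 331 and 343). On these probe sets replicate 1 was below the day 3 range for ATF3 and within it for SLC1A4, unlike the other day 6 arrays. The brighter 202672_s_at and 1554980_a_at of ATF3 did not pass without that replicate (adjusted p = 0.46 and 0.21 by limma). ASNS, asparagine synthetase, had 27025, 21792 and 21585 at day 6, against 17102, 11399 and 17974 at day 3, with no overlap but an adjusted p of 0.22. NUPR1, a stress-induced nuclear protein, had 1042, 388 and 621 at day 6, against 154, 127 and 433 at day 3 (1.63 ± 0.50, adjusted p = 0.097). The median of the list was 0.24 (0.19 without replicate 1), and in 8 of 36 members all day 6 arrays lay above all day 3 arrays, against 5.82% of all genes. ATF4 itself overlapped between the days (0.46, adjusted p = 0.39).

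None of 18 tested cytosolic tRNA synthetases, which charge tRNAs, was called, and 17 had a positive log2 fold change, against 5304 of all 12104 genes. GARS1 had 14685, 9461 and 8612 units at day 6, against 5881, 5602 and 6695 at day 3 (0.81 ± 0.22, adjusted p = 0.065 by limma, and 0.15 without day 6 replicate 1). YARS1 had 19802, 9180 and 10040 at day 6, against 7634, 5704 and 6766 at day 3 (0.88, adjusted p = 0.071), and SARS1 gave 0.75 (adjusted p = 0.084). In each of these 3 the days did not overlap, and replicate 1 was the highest array. The median of the list was 0.26, and 0.19 without replicate 1. Of the 16 regulators of the integrated stress response, EIF2AK4 was called higher, on 237145_at and not on 225164_s_at. Of 23 genes of the endoplasmic reticulum stress response ERN1 (IRE1) was, against 0.917% of all genes called higher. The medians of these lists were -0.055 and -0.106 (0.11 and -0.086 without day 6 replicate 1). ERN1 rose on 235745_at (370, 382 and 469 at day 6, against 132.5, 150 and 136 at day 3, log2 fold change 1.54 ± 0.23). The brighter 227755_at of ERN1 had 434, 585 and 633 at day 6, against 792, 635 and 607 at day 3.

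Immediate early genes, which respond within minutes to growth factors and stress, had the highest list median among those examined, at 0.41 (0.47 without day 6 replicate 1), and 1 of 27 was called with all arrays, against 0.917% of all genes called higher. Without that replicate SRF and ATF3 were called, ATF3 only on its dimmest probe set, 1554420_at. SRF, the serum response factor that drives many of them, rose on 202400_s_at (109, 96.9 and 84.1 units at day 6, against 51.7, 45.2 and 24.2 at day 3, log2 fold change 1.32 ± 0.26, adjusted p = 0.015 by limma), and its brighter 202401_s_at had 857, 1051 and 1093 at day 6, against 516, 779 and 594 at day 3 (0.68, adjusted p = 0.14). CCN1, a matricellular protein, had 10850, 20198 and 13492 at day 6, against 5604, 9070 and 4148 at day 3 (1.27, adjusted p = 0.086). Days 6 and 3 did not overlap on these probe sets. CCN1 201289_at was already 5576 to 12583 at day 0. On the dimmer 210764_s_at CCN1 had 1987, 14770 and 6351 at day 6, against 3046, 6807 and 1807 at day 3, and overlapped. FOS (-0.39), JUN (-0.08) and EGR1 (-0.23) gave negative values and overlapped.

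Promoter stretches of ASNS, GARS1 and SRF are shown because they hold the element known to bind the factor named with them. In the 250 bases before the start site, both strands were searched for TGATGNAA, the core of the composite element to which ATF4 binds with a C/EBP partner, and for the CArG box, to which SRF binds. TGACGTCA, the cyclic AMP response element, was searched as well. Counted were genes with at least 1 matching promoter. Of the 36, 18 and 27 tested ATF4 targets, tRNA synthetases and immediate early genes, 29, 15 and 18 had a promoter sequence. TGATGNAA was in 3.89% of 27305 genes with a promoter (RefSeq, GRCh38.p14), in 6 of 29 tested ATF4 targets and in 3 of 15 tested tRNA synthetases. A CArG box was in 1.44% of the 27305 genes and in 2 of 18 tested immediate early genes, EGR1 and SRF. It was in 1 of 15 tRNA synthetases, GARS1, and in 0 of 29 ATF4 targets. TGATGNAA was also in 1 of the 18, ATF3. TGACGTCA was in 2.03% of the 27305 genes, and in 1 of 29, 0 of 15 and 2 of 18 of the ATF4 targets, tRNA synthetases and immediate early genes. The windows are 90 bases, written 5′ to 3′ on the strand of the gene, with the match in capitals. They lie at chr7:97872428-97872517 (ASNS, minus strand), chr7:30594788-30594877 (GARS1, plus strand, match on the other strand) and chr6:43171179-43171268 (SRF, plus strand). A match is a run of letters and was not tested for binding.
ASNS: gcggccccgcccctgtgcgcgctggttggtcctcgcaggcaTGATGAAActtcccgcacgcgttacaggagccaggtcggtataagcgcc
GARS1: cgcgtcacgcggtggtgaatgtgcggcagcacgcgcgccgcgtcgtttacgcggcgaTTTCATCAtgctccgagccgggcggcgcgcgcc
SRF: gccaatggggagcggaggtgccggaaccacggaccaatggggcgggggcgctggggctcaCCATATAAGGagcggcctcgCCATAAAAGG

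Beside ASNS and GARS1, whose signals did not overlap between the days but did not pass the test, the ATF4 targets with a match were ATF3, CEBPG, HERPUD1, JDP2 and SLC1A5, and the tRNA synthetases AARS1 and IARS1. SRF had 2 CArG boxes in its window. EGR1, the other immediate early gene with the box, had 1315, 2814 and 397 units at day 6, against 536, 5951 and 751 at day 3, and overlapped.

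Of 30 tested genes of inositol phosphate metabolism, INPP5F was called higher and 2 lower, with and without day 6 replicate 1. Over all genes the shares were 0.917% and 3.35% (0.603% and 2.32% without that replicate), and counts of 1 and 2 are too small to compare with them. PLCB1, a phospholipase C that cleaves phosphatidylinositol bisphosphate, had 315, 412 and 346 units at day 6, against 922, 773 and 1084 at day 3 (log2 fold change -1.37 ± 0.22, adjusted p = 0.0079 by limma). PPIP5K1, a kinase that makes inositol pyrophosphates, had 99.7, 68.8 and 85.0 on 1555255_a_at at day 6, against 187, 188 and 132 at day 3 (-1.0 ± 0.24), and 0.11 on its brighter 204578_at. PIP4K2A, a phosphatidylinositol phosphate kinase, had 610, 602 and 695 at day 6, against 1026, 992 and 984 at day 3 (-0.66, adjusted p = 0.055). The median of the list was -0.14 (-0.09 without day 6 replicate 1).

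Among 36 splicing factors and CLK kinases, CLK4 was called higher, PNISR lower and SRSF5 in both directions, against 0.917% higher and 3.35% lower over all genes. CLK4, a kinase of SR proteins, had 2302, 2586 and 2615 units on 210346_s_at at day 6, against 953, 1442 and 698 at day 3, and 942, 998 and 1343 on 228751_at at day 6, against 486, 412 and 438 at day 3 (log2 fold changes 1.34 and 1.28, adjusted p = 0.037 and 0.013 by limma). Its relative CLK1 had 1199, 1326 and 1628 at day 6, against 570, 840 and 611 at day 3 (1.05, adjusted p = 0.053). PNISR fell by 1.32 on 212179_at, and its brighter 212176_at gave 0.13. Without day 6 replicate 1, CLK4 and SRSF5 were called higher, SRSF4 lower, and PNISR was not called (adjusted p = 0.075). The median was 0.03 with all arrays and -0.01 without that replicate.

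Few other lists held calls, and these are single genes to be read against the 0.917% higher and 3.35% lower over all genes. KIF11, the kinesin that separates spindle poles, had 1174, 1847 and 1692 units at day 6, against 3861, 3394 and 3637 at day 3 (log2 fold change -1.23 ± 0.22, adjusted p = 0.011 by limma, and 0.032 without day 6 replicate 1), as the 1 call among 37 genes of mitosis and proliferation. EYA1, a marker of the embryonic kidney, had 97.6, 106 and 117 at day 6, against 227, 262 and 300 at day 3 (-1.30 ± 0.24), as the 1 call among 9 HEK293 lineage markers. CASTOR1, the arginine sensor of the mTORC1 pathway, had 78.5, 47.6 and 45.7 at day 6, against 92.7, 145 and 119 at day 3 (-1.07 ± 0.26), and was called in both fits. ADM, the peptide adrenomedullin, had 6374, 10459 and 5402 at day 6, against 1968, 3997 and 2224 at day 3 (1.45 ± 0.36, adjusted p = 0.044, and 0.073 without that replicate). At day 0 ADM was already 3848 to 9194. PRIMPOL, a primase and polymerase of nuclear and mitochondrial DNA, had 183, 659 and 421 at day 6, against 870, 821 and 1170 at day 3 (-1.35 ± 0.34, adjusted p = 0.046, and 0.086 without that replicate).

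The remaining calls in the lists were lost without day 6 replicate 1 or stood on 1 of several probe sets. GART, of purine synthesis, NDUFA10, of complex I, ATP5MC3, of ATP synthase, P4HA2, a collagen prolyl hydroxylase, and HSPA4, a heat shock protein, were called with all arrays and not without that replicate (adjusted p = 0.086, 0.0504, 0.057, 0.069 and 0.11 on the same probe sets). In each the brightest probe set did not pass. NDUFA10 1554719_at, for example, had 396, 192 and 127 units at day 6, against 66.9, 71.6 and 60.1 at day 3, while 217860_at had 4131, 4854 and 4983 at day 6, against 4214, 4239 and 4652 at day 3. Without that replicate PPARA, a nuclear receptor of fatty acid oxidation, was called lower on 223438_s_at (146, 41.7 and 60.5 at day 6, against 145, 215 and 146 at day 3), RRAGD higher and ULK1 lower. The antisense RNA GABPB1-AS1 was called lower in both fits, on different probe sets.

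None was called in either fit among the tested genes of the methionine cycle (14), polyamines (21), transsulfuration and glutathione (19), cholesterol synthesis (22), the TCA cycle (23), glycolysis (22), mitochondrial ribosomal proteins (72), mitochondrial chaperones and proteases (17), mitochondrial dynamics and mitophagy (20), DNA replication (41), p53 targets (18), NRF2 targets (16) and interferon-stimulated genes (14). Their medians ran from -0.18 for the methionine cycle to 0.28 for glycolysis, and these were 0.03 and 0.10 without day 6 replicate 1. Among mitochondrial ribosomal proteins 54 of 72 had a positive value, against 5304 of all 12104 genes, with a median of 0.20 (0.21 without day 6 replicate 1). In 13 of them all day 6 arrays lay above all day 3 arrays, against 5.82% of all genes. The 67 nuclear respiratory chain subunits had a median of 0.21 (0.11 without that replicate), and the 50 cytosolic ribosomal proteins, all positive in the deposited values, of 0.26 (0.04). Of the genes named for expression in the study, SAT1, which acetylates polyamines, had 43700, 34468 and 28112 at day 6, against 23383, 28324 and 14963 at day 3 (0.70, adjusted p = 0.17 by limma), the transcription factor MYC had 386, 832 and 488 at day 6, against 1412, 873 and 1037 at day 3 (-1.01, adjusted p = 0.34), and the secreted factor GDF15 had 1538, 1250 and 2277 at day 6, against 932, 831 and 1672 at day 3 (0.59, adjusted p = 0.37). MFSD2A, a lipid transporter, gave 0.23, PPARA -0.79 on its brightest probe set, and FGF21 and BHMT were below the filter, at 6.50 to 24.0 and 22.8 to 35.5 units at day 6, against 4.41 to 36.7 and 16.2 to 69.0 at day 3.

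**Figure D5:**
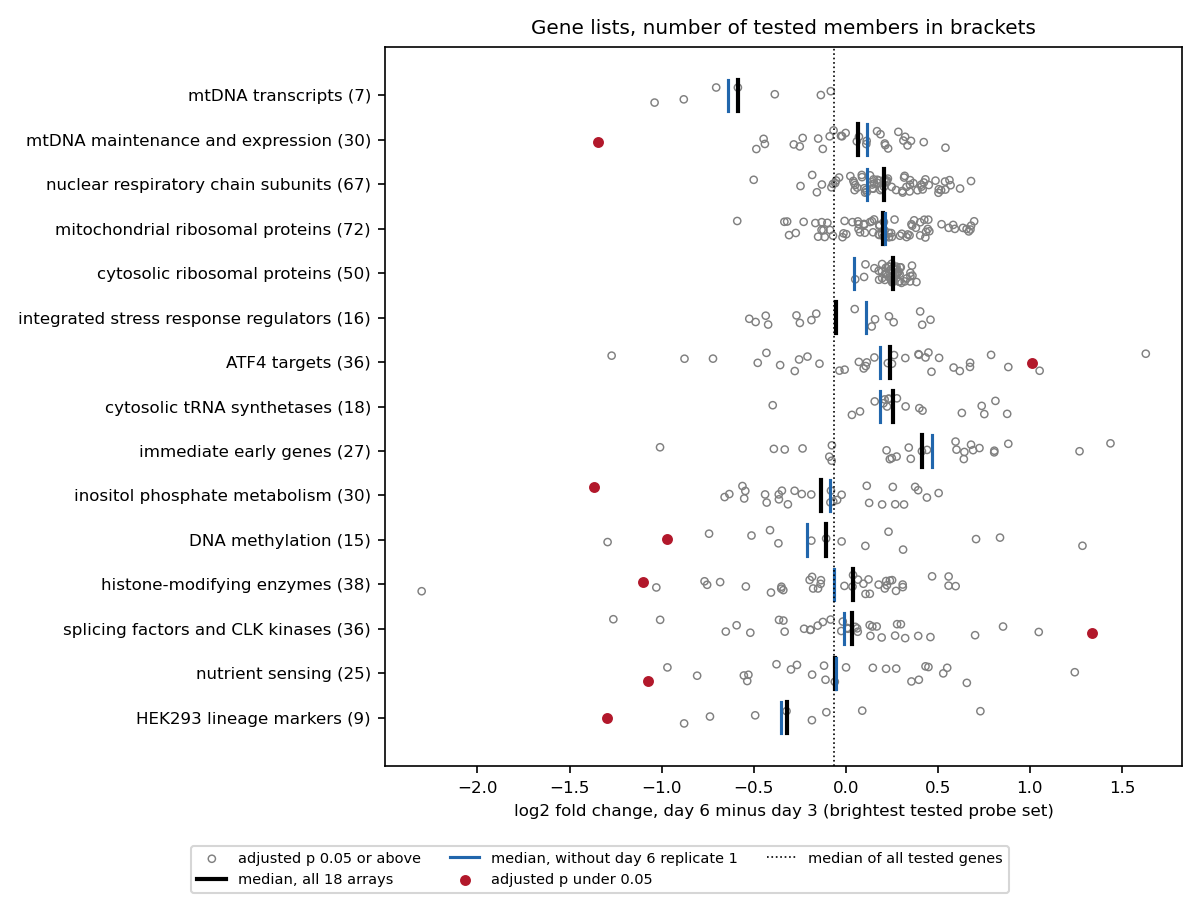
log2 fold change of day 6 minus day 3 (x axis) for the brightest tested probe set of each member of 15 gene lists (y axis, tested members in brackets), with list medians as bars and the median of all tested genes as a dotted line. In the deposited values the 7 mtDNA transcripts lie below 0 (5 of them also with each array set to 1 median) and the 50 cytosolic ribosomal proteins above it, the median of the ribosomal proteins falling to 0.04 without day 6 replicate 1.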

How the data were processed

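The 24 arrays are Affymetrix HG-U133 Plus 2.0 (3' IVT labelling of total RNA). The deposited values are linear signal intensities, which the authors computed by the MAS5 algorithm (Expression Console software), and log2 of them was taken with nothing added and no further scaling. All 54675 probe sets were read. Tested were 23132 probe sets of 12104 genes, those with 1 symbol (41043 of 41097 such probe sets matched RefSeq by Entrez ID) and a mean signal over the 18 HEK293 arrays of at least 57.2, the median of all probe sets.

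limma 3.58.1 in R 4.3.3 fitted 6 group means to the 18 arrays, with Benjamini-Hochberg adjustment over the tested probe sets and a threshold of 0.05. Errors are SE of that fit. The number of arrays limits the precision. Per the study's methods the replicates are separate cultures, and p-values measure the spread between them. A gene's value in a list is that of its brightest tested probe set, and a gene was called on any of its probe sets. Named were POLG and the mtDNA genes, genes the study names for expression, the 12 largest rises and 12 largest falls called with and without day 6 replicate 1 with no overlap, and up to 4 members of each list by p, besides those said to be named otherwise. List members called on another probe set were named after their values were seen. The members and lists were chosen with earlier results of these data known.

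The study's legend ties a culture round to a single starter culture, but no source says that a replicate number marks a round. The deviations of same-numbered arrays from their group means correlated between days 6 and 3 at 0.005, 0.139 and 0.346 for replicates 1 to 3. As these were not all above 0.1, the block was an alternative only. The value of 0.005 involves day 6 replicate 1, which also entered the day 6 means behind the other values. This check therefore cannot settle whether same-numbered arrays are paired. Scaling, filter, added signal, arrays in the model, array weights, probe set rules and left-out arrays were also varied.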

Additional observations from a re-analysis of the deposited data

How the results depend on the processing

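The counts of 111 genes higher and 406 lower moved by over 1.5 times under many settings. Higher and lower calls were 37 and 81 with no filter on signal, 57 and 210 with the filter at the 75th percentile, 18 and 132 with the probe sets of a gene averaged, 33 and 213 with the brightest probe set only, and 577 and 1586 with array weights. They were 156 and 192 after quantile normalization, 134 and 90 with each array set to 1 median, 4 and 2 with the 12 DN-POLG arrays, and 0 and 2 with the 6 arrays of days 6 and 3. The methods' analysis of variance on those 6 arrays gave 592 and 1554 at an unadjusted p under 0.05 and 0 and 0 after Benjamini-Hochberg. With the replicate block they were 69 and 191. Leaving out 1 array gave 26 to 134 higher and 22 to 485 lower, with the lowest counts without day 3 replicate 3. Settings chosen after seeing the data gave 0 and 0 (12 DN-POLG arrays), 6 and 11 (replicate block) and 78 and 71 (quantile normalization), each without day 6 replicate 1, and 466 and 1499 with array weights on the 12 DN-POLG arrays. The cause of these moves was not tested.

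No called gene named by rule changed sign on its named probe set. PCGF3 (-0.051) and SRSF5 (-0.12) changed sign when the probe sets of a gene were averaged. A setting that dropped the named probe set could not show a change. Of 35 such probe sets, 16 were kept with the brightest probe set only. The filter at the 75th percentile kept 12, and leaving out _s_at and _x_at probe sets kept 25. The ACTB ratio difference, 0.55 on the log2 scale, ranged from -0.44 to 1.107 as 1 array was left out, and that of GAPDH, 0.30, from -0.042 to 0.50. Of the 12 largest falls, 6 (OLFML2A, LINC01535, RPP30, ELP2, PLEKHG4B and DCBLD2) had all day 6 signals below 57.2, the filter's level, and of the 12 largest rises 5 (STK17B, BLZF1, ZCCHC2, SRSF5 and CASK) had all day 3 signals below it, which limits how well the sizes and ranks of their fold changes are known. Of the 37 lists, 17 kept the sign of their median under every setting planned beforehand, marker lists of other cell types among them, and 20 did not. The settings chosen after seeing the data were left out of this count.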
